A study of Homo sapiens with 12 samples.

Results

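The metallothionein genes, MT1A, MT1E, MT1F, MT1G, MT1H, MT1M, MT1X and MT2A, were taken by their symbols from the deposited gene tables, where all 8 were found among 48114 listed genes. PolyA RNA was sequenced in 12 libraries of PANC-1 and HPAF-II, established human cell lines of pancreatic ductal adenocarcinoma (PDAC), of which PANC-1 represents the basal-like and HPAF-II the classical tumor subtype. PANC-1 was silenced for 48 h with a non-targeting siRNA (siCtrl), or against QKI (siQKI) or RBFOX2 (siRBFOX2), and each group holds 3 libraries. HPAF-II cells received siCtrl alone (3 libraries), as given by the sample labels. Both lines were grown in the same serum-containing medium, and no other agent or allele was named. The series calls the 3 libraries of a group biological replicates, but separate cultures are not described, so the p-values cover only the spread between these libraries. QKI and RBFOX2 are RNA-binding proteins that control alternative splicing, and the comparisons ask how the loss of each changes PANC-1 RNA and how the lines differ.

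Metallothioneins are small, cysteine-rich proteins that bind zinc, copper and cadmium and buffer the free metal of the cell. Their genes are switched on when zinc activates the transcription factor MTF1, which binds metal response elements (MREs) in their promoters, and glucocorticoids and oxidative stress can also induce them. MT2A and the MT1 genes are made in most tissues, and the pancreas is known for its high zinc traffic, in the secretions of its exocrine cells and in the insulin granules of its islets.

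The members lie side by side on chromosome 16. In the files (hg38 coordinates, FAST DB identifiers), MT2A (GSHG0016494) spanned chr16:56608584-56609497, MT1E (GSHG0016498) chr16:56625475-56627112, MT1M (GSHG0016497) chr16:56632659-56633981 and MT1A (GSHG0016495) chr16:56638666-56640087. They were followed by MT1F (GSHG0016502) at chr16:56657731-56659303, MT1G (GSHG0017292) at chr16:56666730-56668065, MT1H (GSHG0016503) at chr16:56669814-56671129 and MT1X (GSHG0016505) at chr16:56682470-56688374. In GENCODE, MT1G is on the minus strand and the other 7 members are on the plus strand. The genes are near copies of each other, so the part of each GENCODE transcript that another gene shares exactly was counted. At a length of 100 bases, MT1A, MT1E, MT1F, MT1G, MT1M and MT2A shared no stretch with another gene, MT1H shared 1.39% of its stretches with the copy MT1HL1, and MT1X shared 30.8% with AC026461.1, a transcript that runs through MT1X on the same strand. At 50 bases, the shared part was 3.27% for MT1F, 4.24% for MT2A, 5.76% for MT1A, 7.05% for MT1M, 7.1% for MT1E, 15.8% for MT1H, 16.5% for MT1G and 43.6% for MT1X. How reads that match several genes were counted was not given in the sources used here, so MT1X, MT1G and MT1H are the least certain members.

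The promoters of the members in the RefSeq promoter table (build GRCh38.p14) are shown for the MREs through which zinc acts on these genes. MT2A, MT1X and MT1H were matched (3 of 8), and MT1A, MT1E, MT1F, MT1G and MT1M were not. Each sequence is the 250 bases before the start of the gene on the plus strand, and capitals mark the MRE core, TGCACNC or TGCGCNC, on either strand.
MT2A, chr16:56608334-56608583: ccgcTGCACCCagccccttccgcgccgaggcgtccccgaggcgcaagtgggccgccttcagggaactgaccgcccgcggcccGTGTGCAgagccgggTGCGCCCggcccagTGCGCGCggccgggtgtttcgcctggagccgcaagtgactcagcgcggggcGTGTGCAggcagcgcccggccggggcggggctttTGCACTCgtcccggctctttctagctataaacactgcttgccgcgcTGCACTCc
MT1X, chr16:56682220-56682469: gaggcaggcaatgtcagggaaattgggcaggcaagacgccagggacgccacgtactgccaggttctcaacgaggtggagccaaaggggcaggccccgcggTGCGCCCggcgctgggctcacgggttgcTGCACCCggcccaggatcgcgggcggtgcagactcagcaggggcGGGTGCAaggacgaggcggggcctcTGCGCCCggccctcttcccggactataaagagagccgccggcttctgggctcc
MT1H, chr16:56669564-56669813: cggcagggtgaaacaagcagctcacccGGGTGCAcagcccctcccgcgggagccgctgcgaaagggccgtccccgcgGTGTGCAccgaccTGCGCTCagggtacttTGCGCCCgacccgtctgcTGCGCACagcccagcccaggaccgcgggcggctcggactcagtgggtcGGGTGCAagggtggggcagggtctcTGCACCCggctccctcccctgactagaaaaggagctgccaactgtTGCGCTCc
The core occurred 7 times before MT2A, 4 times before MT1X and 8 times before MT1H, and no match overlapped another. Of 35116 RefSeq windows of the same length, 24.8% held at least 1 match and 1.58% held 3 or more, with a median of 0 and a maximum of 12. As many matches as in MT2A were found in 0.0313% of the windows (11 windows), as many as in MT1X in 0.37% (130 windows) and as many as in MT1H in 0.0171% (6 windows). In all 3 promoters a match ended 47 or 48 bases before the start and another lay 72 to 88 bases before it, the second on the minus strand. MT2A and MT1H also had a match that ended 2 bases before the start, which MT1X did not. The matches are a description of the letters and not of binding, and MTF1 occupancy was not measured here.

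Values are gene counts divided by the size factor of the library (normalized counts). Where genes or lines are set side by side, the values were rescaled so that each library sums to 1000000 (rescaled units). The limma test took genes whose mean over the 9 PANC-1 libraries reached 10 normalized counts, on the scale of log2(normalized count + 1), and a gene was said to rise or fall (was called) at a Benjamini-Hochberg adjusted p under 0.05; 7 of the 8 members passed this filter, and MT1G did not. QKI fell from 25533 ± 869 normalized counts in siCtrl to 5034 ± 412 in siQKI (mean ± SD, n = 3), 19.7% of the control, and RBFOX2 fell from 15429 ± 76.8 to 2095 ± 352 in siRBFOX2, 13.6% of the control. In siQKI, RBFOX2 was lower too, by 0.29 on the log2 scale (adjusted p = 0.0207, limma with Benjamini-Hochberg adjustment), a call that was lost when libraries were rescaled by their upper quartile (log2 fold change -0.20, adjusted p = 0.096). Duct epithelial markers summed to 2870 to 2935 rescaled units in siCtrl, 2790 to 2966 in siQKI, 2385 to 2539 in siRBFOX2 and 11275 to 12117 in HPAF-II, with all 7 above 0 in every group. CDH1 (2.87 against 196), KRT7 (4.16 against 866) and EPCAM (13.8 against 423) were lower in siCtrl than in HPAF-II. KRT8, KRT18 and KRT19 were lower too, and SOX9 was level (313 against 315). CDH1 rose in siQKI (log2 fold change 1.39, limma adjusted p = 1.54e-07) and siRBFOX2 (0.53, limma adjusted p = 0.00177). KRT18 and SOX9 fell in both. Classical markers summed to 19.3 to 25 in siCtrl and 696 to 805 in HPAF-II. Mesenchymal markers summed to 5339 to 5528 and 1.21 to 16.4. Islet markers (INS and GCG) were listed at 0 in all 12 libraries. Of 5 fibroblast markers, COL1A1 and PDGFRB rose in both knockdowns, and the summed level was 11.7 to 13.4 rescaled units in siCtrl, 25.2 to 28.7 in siQKI and 15.1 to 22.6 in siRBFOX2. LUM was listed at 0 in siCtrl and stood at 20.0, 31.0 and 8.34 normalized counts in siRBFOX2, COL1A2 was listed at 0 in siCtrl and stood at 10.5, 0 and 44.5 in siRBFOX2, and DCN was listed at 0 in all 9 PANC-1 libraries. Of 4 leukocyte markers, PTPRC was listed at 0 in siCtrl and siQKI and CD3E in all PANC-1 groups, and the sum, which was nearly all CD68, was 144 to 167 rescaled units in siCtrl, 116 to 118 in siQKI and 126 to 133 in siRBFOX2. Acinar and endothelial markers summed to at most 0.28 and 0.22 rescaled units in PANC-1. The part of these markers in the results was not tested. In bulk RNA, fewer cells that express a gene and less of its RNA per cell cannot be told apart.

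In control PANC-1 cells, MT2A was among the most abundant RNAs, and the other members spread over a wide range below it. Per kb of exon, in rescaled units, MT2A stood at 1537 ± 185, MT1E at 200 ± 17.6, MT1X at 45.6 ± 8.06 and MT1A at 33.2 ± 4.36. MT1F followed at 2.58 ± 0.409, MT1M at 1.12 ± 0.0655 and MT1H at 0.649 ± 0.21. These 7 levels were ordered without overlap of any neighbours among the siCtrl libraries, and the order was the same in mean normalized counts. Each length joins all exons of the GENCODE transcripts of a gene and may differ from the region that was counted. For MT2A, the 991 exon bases exceed its listed span. Overlaps between neighbours per kb depend on these lengths. In siQKI, MT1X (37.1 to 45.5) overlapped MT1A (33.7 to 42.7), MT1F (1.56 to 2.6) overlapped MT1M (0.847 to 1.62), and MT1M overlapped MT1H (0.543 to 0.923). In siRBFOX2 the same neighbours overlapped, with MT1X at 27.7 to 36.5, MT1A at 24.3 to 30.4, MT1F at 1.12 to 2.06, MT1M at 0.577 to 1.16 and MT1H at 0.425 to 0.717 rescaled units per kb. MT1G was listed at 0 in 8 of 9 PANC-1 libraries and at 7.66 normalized counts in siCtrl replicate 1, and was not tested. By its value per library, MT2A ranked 47 to 70 among all genes in siCtrl, 64 to 86 in siQKI and 89 to 102 in siRBFOX2. All 8 members made up 0.179 ± 0.0211% of the summed values in siCtrl, 0.157 ± 0.0139% in siQKI and 0.1343 ± 0.00862% in siRBFOX2. The 3 siRBFOX2 libraries (0.125% to 0.142%) lay below the 3 siCtrl libraries (0.157% to 0.199%), and siQKI (0.148% to 0.173%) overlapped siCtrl.

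**Figure D1:**
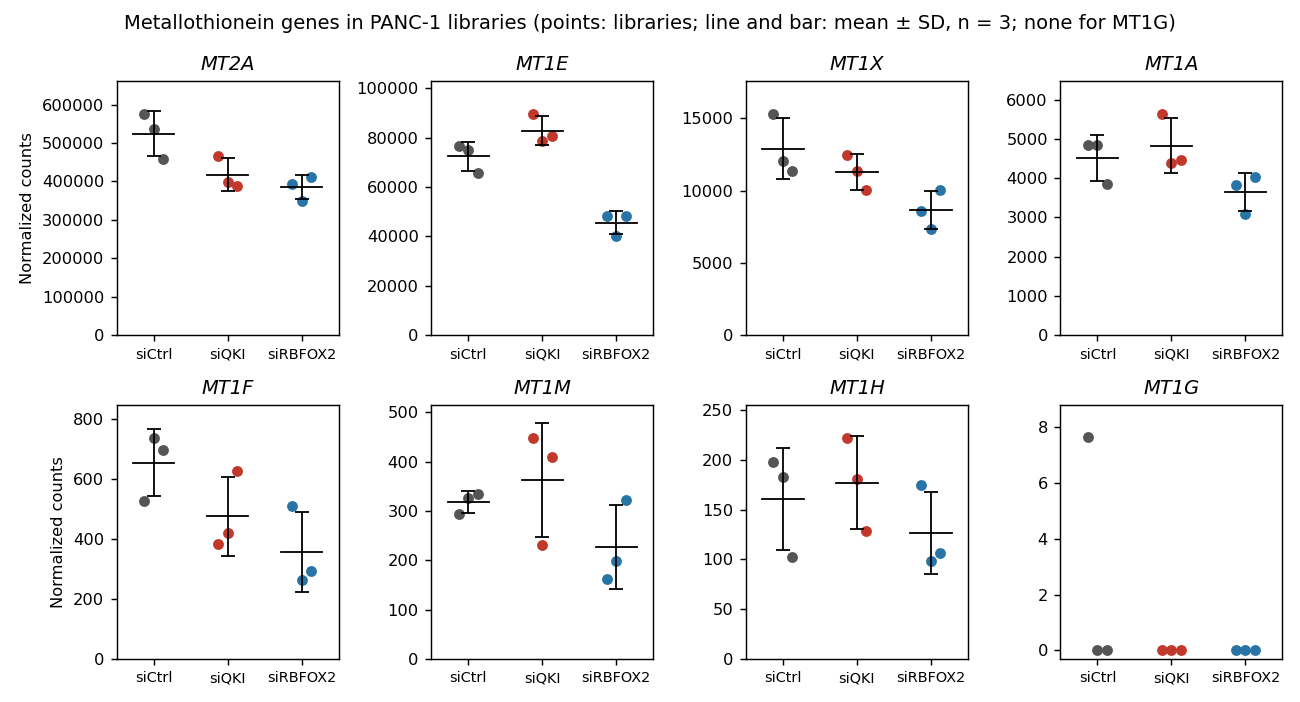
Normalized counts of the 8 members in the 9 PANC-1 libraries, each on an axis of its own that starts at or just below 0. Points are libraries, and lines with bars are the mean ± SD (n = 3), left out for MT1G. MT1E, MT2A, MT1X and MT1F in siRBFOX2 lie below every siCtrl point, and MT1E in siQKI lies above them.

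Loss of RBFOX2 was followed by lower RNA of MT1E, MT1X, MT2A and MT1F, and no member rose. Of the 7 members tested, 4 fell, where 26.5% of the 22544 tested genes were called in either direction and 14.5% were called lower. The median log2 fold change of the 7 was -0.55, against 0.0115 over all tested genes, and all 7 estimates were negative, which held in each of 17 alternative settings. All siRBFOX2 libraries lay below all siCtrl libraries for 4 members (MT1E, MT1X, MT2A and MT1F), as for 19.7% of all tested genes, and none had them above, as for 18.2%.

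MT1E, the second most abundant member per length, had 76689, 75087 and 65705 normalized counts in siCtrl and 48461, 40123 and 48255 in siRBFOX2. The groups did not overlap, and the lowest control library stood well above the highest knockdown library. MT1E was reduced to 62.9% of the control (log2 fold change -0.67, SE 0.07, 95% interval -0.83 to -0.51, adjusted p = 9.64e-06, limma with Benjamini-Hochberg adjustment over all tested genes). MT2A had 574903, 536774 and 459479 normalized counts in siCtrl and 394290, 350110 and 410920 in siRBFOX2. The groups were apart, although siCtrl replicate 3 came near the highest knockdown library. MT2A fell to 73.5% of the control (log2 fold change -0.44, SE 0.08, limma adjusted p = 0.000944). MT1X had 15291, 12043 and 11356 normalized counts in siCtrl and 8602, 7345 and 10035 in siRBFOX2. Here too every knockdown library was below every control library, and the level was 67.2% of the control (log2 fold change -0.57, SE 0.12, limma adjusted p = 0.00168). For MT1X, reads of the transcript that runs through it could not be told apart.

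MT1F, a member with low RNA, had 527, 737 and 697 normalized counts in siCtrl and 510, 264 and 293 in siRBFOX2. The groups were separated by a narrow gap, between siRBFOX2 replicate 1 and siCtrl replicate 1. The level was 54.4% of the control (log2 fold change -0.92, SE 0.25, limma adjusted p = 0.0131). The MT1F call was lost without siCtrl replicate 2 (log2 fold change -0.83, adjusted p = 0.0547), without siRBFOX2 replicate 2 (-0.74, adjusted p = 0.0608) and in a limma fit without the mean-variance trend (adjusted p = 0.079). MT1A, MT1M and MT1H did not pass the test. MT1A had 4856, 4845 and 3851 normalized counts in siCtrl and 3827, 3091 and 4024 in siRBFOX2, and siCtrl replicate 3 fell inside the knockdown range. Its log2 fold change was -0.31 (SE 0.12, limma adjusted p = 0.0656), and it passed without siCtrl replicate 3 (-0.42, adjusted p = 0.021), without siRBFOX2 replicate 3 (-0.38, adjusted p = 0.0412) and without siQKI replicate 1 (adjusted p = 0.0401). MT1M and MT1H had log2 fold changes of -0.55 (95% interval -1.16 to 0.07, limma adjusted p = 0.195) and -0.34 (-1.09 to 0.41, limma adjusted p = 0.547).

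Loss of QKI gave another pattern, in which MT2A fell while MT1E was higher in every library without passing the test. Of the 7 members tested, 1 fell and none rose, where 33.0% of all tested genes were called (18.1% of all tested genes lower and 14.9% higher). The median log2 fold change of the members was 0.09, against 0.0252 over all tested genes, with 4 positive and 3 negative estimates. MT1E was the 1 member with all siQKI libraries above all siCtrl libraries, as 21.6% of all tested genes had them, and no member had them below, as 23.0% did.

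MT2A had 466690, 398181 and 388116 normalized counts in siQKI, beside the siCtrl values of 574903, 536774 and 459479. The groups overlapped, since siCtrl replicate 3 was below siQKI replicate 1. MT2A stood at 79.7% of the control (log2 fold change -0.33, SE 0.08, 95% interval -0.50 to -0.15, adjusted p = 0.00626, limma with Benjamini-Hochberg adjustment), and the call was lost in a fit without the mean-variance trend (adjusted p = 0.0804). MT1E had 89516, 78451 and 80480 normalized counts in siQKI, against at most 76689 in siCtrl. The gap between the groups was small beside the spread within them, and the log2 fold change of 0.19 (SE 0.07, 95% interval 0.03 to 0.35) missed the threshold (limma adjusted p = 0.0589). It passed in 5 of 17 alternatives, among them rescaling by the upper quartile (log2 fold change 0.28, adjusted p = 0.00507) and leaving out siCtrl replicate 1 (0.24, adjusted p = 0.0431) or siRBFOX2 replicate 2 (0.19, adjusted p = 0.0191), and the adjusted p ranged from 0.00507 to 0.26 over all of them.

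Among the other members in siQKI, MT1X had 12490, 11368 and 10029 normalized counts, and MT1A had 5631, 4377 and 4460. Both overlapped siCtrl, with log2 fold changes of -0.18 (limma adjusted p = 0.255) and 0.09 (limma adjusted p = 0.604). MT1F had 382, 419 and 626 normalized counts, with only siQKI replicate 3 inside the siCtrl range (log2 fold change -0.48, 95% interval -1.02 to 0.06, limma adjusted p = 0.172). MT1M had 448, 230 and 409 normalized counts beside 293, 327 and 335 in siCtrl, so siQKI spread to both sides of the control (log2 fold change 0.13, limma adjusted p = 0.782). MT1H had 222, 181 and 129 beside 198, 183 and 103 in siCtrl, which overlapped throughout (log2 fold change 0.16, limma adjusted p = 0.785).

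**Figure D2:**
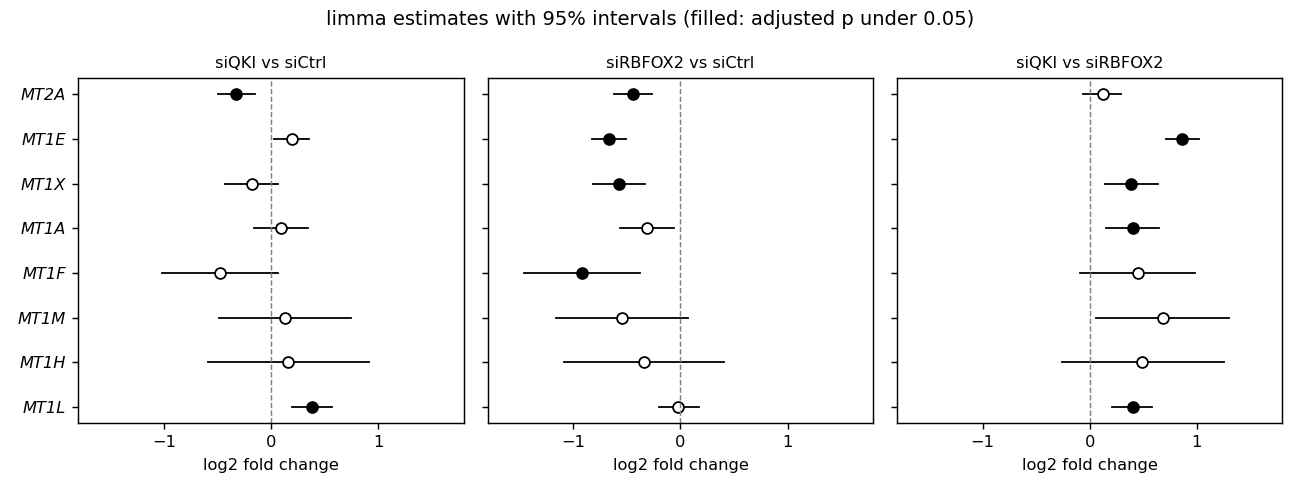
limma log2 fold changes (x axis) of the 7 tested members and of MT1L for siQKI vs siCtrl, siRBFOX2 vs siCtrl and siQKI vs siRBFOX2, with 95% intervals (lines). Filled points have an adjusted p under 0.05 over all tested genes. All members are left of 0 in the middle panel, whereas in the left panel MT2A (-0.33) and MT1E (0.19) lie on opposite sides.

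The siQKI and siRBFOX2 comparisons share the 3 control libraries, so their fold changes are not independent, and the knockdowns were also compared directly. Relative to siRBFOX2, 3 of 7 tested members were higher in siQKI (MT1E, MT1A and MT1X) and none was lower, where 21.5% of all tested genes were called and 9.93% were called higher. All 7 estimates were positive (median 0.45, against 0.00524 over all tested genes), also in each of 17 alternatives. MT1E and MT1A had all siQKI libraries above all siRBFOX2 libraries, as did 17.1% of all tested genes.

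MT1E was higher in siQKI by 0.86 on the log2 scale (SE 0.07, limma adjusted p = 1.01e-06), 182% of its level in siRBFOX2, and passed in all 17 alternatives. MT1A, at 4377 to 5631 normalized counts in siQKI and 3091 to 4024 in siRBFOX2, differed by 0.40 (SE 0.12, limma adjusted p = 0.0221), and lost the call without siQKI replicate 1 (0.29, adjusted p = 0.113) or siRBFOX2 replicate 2 (0.29, adjusted p = 0.101) and without the mean-variance trend (adjusted p = 0.14). MT1X differed by 0.39 (SE 0.12, limma adjusted p = 0.0246), but siRBFOX2 replicate 3 was just above siQKI replicate 3. The MT1X call was lost in 5 of 17 alternatives, namely without siQKI replicate 1 (0.31, adjusted p = 0.109), siQKI replicate 2 (adjusted p = 0.0694), siRBFOX2 replicate 1 (adjusted p = 0.0584) or siRBFOX2 replicate 2 (0.28, adjusted p = 0.113) and without the trend (adjusted p = 0.163). MT2A differed by 0.12 (95% interval -0.06 to 0.29, limma adjusted p = 0.379), MT1F by 0.45 (-0.09 to 0.98, limma adjusted p = 0.25), MT1H by 0.49 (-0.26 to 1.25, limma adjusted p = 0.379) and MT1M by 0.68 (0.06 to 1.30, limma adjusted p = 0.118), and none of these passed. MT1M passed without siQKI replicate 2 (0.98, adjusted p = 0.028) or siRBFOX2 replicate 3 (0.96, adjusted p = 0.0326), and MT1F without siRBFOX2 replicate 1 (0.74, adjusted p = 0.0412).

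The shares of the members within the family do not depend on the scaling of a library. MT2A made up 84.8% to 85.5% of the summed member values in siCtrl, 80.1% to 81.1% in siQKI and 86.5% to 87.3% in siRBFOX2, and MT1E made up 11.4% to 12.1%, 15.6% to 16.6% and 10% to 10.6%. The ratio of MT1E to MT2A was 0.133, 0.14 and 0.143 in siCtrl, 0.192, 0.197 and 0.207 in siQKI and 0.123, 0.115 and 0.117 in siRBFOX2. The 3 groups did not overlap in this ratio, which was highest in siQKI and lowest in siRBFOX2. The ratio of MT1X to MT2A overlapped between the groups, at 0.0224 to 0.0266 in siCtrl, 0.0258 to 0.0285 in siQKI and 0.021 to 0.0244 in siRBFOX2. These ratios were chosen after the values were seen and are given without a test.

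Of the other metallothionein loci, 8 of 13 were listed and 5 were tested (MT1L, MT1B, MT1JP, MT1DP and MT1IP). In siQKI 1 rose (MT1L) and none fell, and in siRBFOX2 none was called, with medians of 0.26 and -0.39. Over all tested genes, 33.0% were called in siQKI and 26.5% in siRBFOX2. MT1L, annotated in GENCODE as a transcribed pseudogene between MT2A and MT1E, overlapped MT1E per length in siCtrl (178 to 233 rescaled units per kb, mean 214, beside 181 to 215, mean 200). That overlap rests on exon lengths of 411 bases for MT1L and 1052 for MT1E, and MT1L was far below MT1E in normalized counts. The normalized counts of MT1L were 32504, 33096 and 25320 in siCtrl, 43115, 36944 and 37629 in siQKI and 31684, 27637 and 30063 in siRBFOX2. The siQKI libraries lay above all others, and MT1L rose in siQKI (log2 fold change 0.38, SE 0.09, limma adjusted p = 0.00333), a call that was lost without the mean-variance trend (adjusted p = 0.061). In siRBFOX2 the groups overlapped, with a log2 fold change of -0.02 (95% interval -0.20 to 0.17, limma adjusted p = 0.92), which turned to 0.02 with upper-quartile rescaling. MT1L was also higher in siQKI than in siRBFOX2 (0.40, SE 0.09, limma adjusted p = 0.00407). The ratio of MT1L to MT1E was 0.385 to 0.441 in siCtrl, 0.468 to 0.482 in siQKI and 0.623 to 0.689 in siRBFOX2, without overlap. MT1L shared no stretch of 100 bases with another gene in GENCODE and 4.42% of its stretches of 50 bases. MT1JP, MT1DP, MT1IP and MT1B had mean normalized counts of 51.2 to 313.7 in siCtrl and did not pass in any PANC-1 comparison.

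The genes beside the cluster were set against the members, since they share the chromosome region but are not metallothioneins. Of 8 tested, 3 rose and 2 fell in siQKI, and 2 rose and 2 fell in siRBFOX2, with medians of 0.07 and 0.16. The shares of all tested genes called in either direction were 33.0% in siQKI and 26.5% in siRBFOX2. The nearest listed gene upstream, BBS2, a ciliary gene, rose in siQKI by 0.19 (limma adjusted p = 0.0232) and did not pass in siRBFOX2. The nearest listed gene downstream, NUP93, a nuclear pore gene, fell in siRBFOX2 (log2 fold change -0.23, limma adjusted p = 0.00971), as did NUDT21, an mRNA 3′ processing gene (-0.20, limma adjusted p = 0.00329), while NLRC5 (0.48) and CPNE2 (0.24) rose. NUDT21 (-0.22, limma adjusted p = 0.00135) and CPNE2 (0.34, limma adjusted p = 6.89e-05) changed the same way in siQKI. GNAO1 rose in siQKI (0.31, limma adjusted p = 0.0128) and was not called in siRBFOX2. The fall of OGFOD1 in siQKI (-0.15, limma adjusted p = 0.0327) was lost with upper-quartile rescaling (adjusted p = 0.453).

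**Figure D3:**
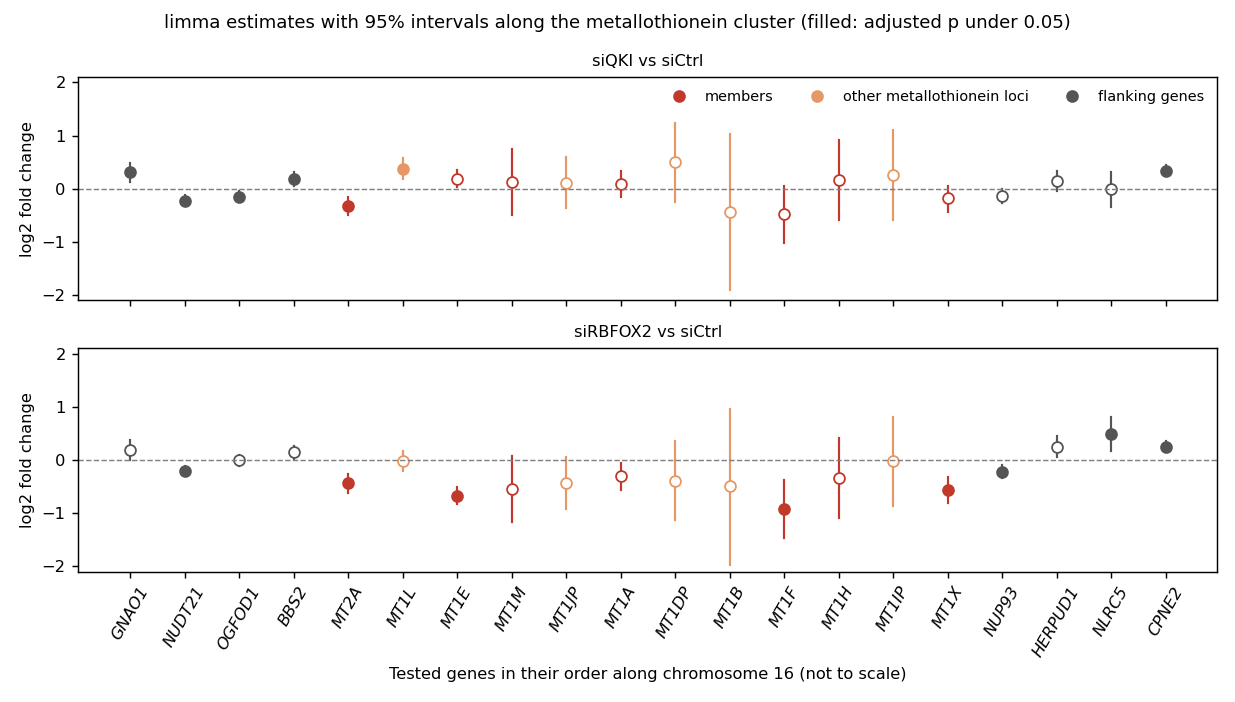
limma log2 fold changes (y axis) with 95% intervals for siQKI (top) and siRBFOX2 (bottom) vs siCtrl, with tested genes in their order on chromosome 16 (x axis, not to scale), colored as members, other metallothionein loci and flanking genes. Filled points have an adjusted p under 0.05. In siRBFOX2 the filled member points are all below 0, from MT2A (-0.44) to MT1F (-0.92), with flanking genes on both sides of 0.

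Zinc export and sensing genes were next set beside the members. Of 9 tested genes for the metal sensor and zinc exporters, 1 rose (SLC30A1) and 1 fell (SLC30A6) in siQKI, and 2 fell in siRBFOX2 (SLC30A1 and MTF1). Over all tested genes, 33.0% were called in siQKI and 26.5% in siRBFOX2, 14.5% lower. With upper-quartile rescaling, SLC30A6 did not pass in siQKI (-0.15, limma adjusted p = 0.113) and SLC30A9 passed (0.18, limma adjusted p = 0.009). SLC30A1 carries zinc out of the cell and, like the metallothioneins, is a target of MTF1. It had 5294, 5466 and 5767 normalized counts in siCtrl, 7195, 6851 and 6509 in siQKI and 4444, 4683 and 4507 in siRBFOX2. The 3 groups did not overlap, and SLC30A1 rose by 0.31 in siQKI (SE 0.06, limma adjusted p = 0.000644) and fell by 0.28 on the log2 scale in siRBFOX2 (SE 0.06, limma adjusted p = 0.00248). The direct difference between the knockdowns was 0.59 (limma adjusted p = 4.21e-06). MTF1 had 10421, 10768 and 10419 normalized counts in siCtrl and 8909, 9561 and 9261 in siRBFOX2, where it fell to 87.7% (log2 fold change -0.19, limma adjusted p = 0.0086), but with upper-quartile rescaling it did not pass (-0.15, adjusted p = 0.0685). In siQKI the log2 fold change of MTF1 was -0.01 (95% interval -0.12 to 0.09, limma adjusted p = 0.856).

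Among 13 tested zinc importers of the SLC39A family, 1 rose and 5 fell in siQKI, and 1 rose and 5 fell in siRBFOX2. The shares called over all tested genes were 33.0% in siQKI (18.1% lower) and 26.5% in siRBFOX2 (14.5% lower). SLC39A14, a zinc and iron importer, fell by 0.54 on the log2 scale in siQKI (limma adjusted p = 4.1e-06) and by 0.32 in siRBFOX2 (limma adjusted p = 0.000787). SLC39A11 fell in both (-0.49 and -0.30), and SLC39A1, the importer with the highest values, fell to 88.4% and 87.5% of the control. The listed span of SLC39A1, chr1:153959099-154657835, is the widest of the listed importers. Reads of other genes within that span may be part of the SLC39A1 value, which was not tested. With upper-quartile rescaling the importers that fell numbered 4 and 3, and the SLC39A1 call in siQKI was lost (adjusted p = 0.136). Of 13 tested copper handling genes, 2 rose and 3 fell in siQKI and 4 rose and 2 fell in siRBFOX2, beside the same shares over all tested genes. The copper chaperone CCS rose in both (0.29, limma adjusted p = 0.0123, and 0.43, limma adjusted p = 0.00111), and the copper importer SLC31A1 fell in siQKI (-0.37, limma adjusted p = 0.00078).

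Most other inducible genes of metal and oxidative stress rose in siRBFOX2, in which no metallothionein member rose. Of 8 tested, 5 rose and 1 fell in siRBFOX2, and 3 rose and 3 fell in siQKI. In either direction, 26.5% of all tested genes were called in siRBFOX2 (14.5% lower). In siQKI, 33.0% of all tested genes were called (14.9% higher and 18.1% lower). HMOX1, which degrades heme, had 33466, 37213 and 41455 normalized counts in siCtrl and 66701, 59774 and 75253 in siRBFOX2, to 180% of the control (log2 fold change 0.85, limma adjusted p = 2.91e-06). In siQKI its log2 fold change was -0.18 (limma adjusted p = 0.106). The cystine carrier SLC7A11 (0.93), the thioredoxin reductase TXNRD1 (0.43), the sulfiredoxin SRXN1 (0.45) and the glutathione synthesis gene GCLM (0.27) rose in siRBFOX2 as well, and the heat shock gene DNAJB1 fell in both knockdowns (-0.55 in siQKI and -0.43 in siRBFOX2). The heat shock genes HSPA1A and HSPA1B rose in siQKI (0.15 and 0.16). Neither was called in siRBFOX2 (limma adjusted p = 0.954 for HSPA1A and 0.805 for HSPA1B). Of 8 tested genes for the glucocorticoid receptor and its inducible genes, 2 rose and 3 fell in siQKI and 2 fell in siRBFOX2, beside the shares over all tested genes given above. DUSP1, a phosphatase of MAP kinases, fell to 56.4% in siRBFOX2 (limma adjusted p = 5.4e-07) and to 83% in siQKI (limma adjusted p = 0.00584), and ERRFI1 fell in both (-0.39 in siQKI and -0.48 in siRBFOX2), whereas the receptor gene NR3C1 rose in siQKI (0.30, limma adjusted p = 0.00136). TSC22D3 rose in siQKI (0.41, limma adjusted p = 0.0278) and missed the threshold in siRBFOX2 (0.37, limma adjusted p = 0.0506). With upper-quartile rescaling TSC22D3 passed in siRBFOX2 (0.41, limma adjusted p = 0.0389). FKBP5 fell in siQKI (-0.16, limma adjusted p = 0.0305), a call lost with that rescaling. PER1, KLF9 and SGK1 were called in neither knockdown.

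The genes whose values over the 9 PANC-1 libraries were most like the mean standardized profile of the 7 tested members were a gene without a symbol (GSHG0018942), TXNDC17, ERH, STX10 and RBX1, with Pearson's r of 0.978, 0.978, 0.976, 0.971 and 0.970. These 5 lead a search of all tested genes, and the libraries share their groups and scaling, so the r values are descriptions. The members themselves had r of 0.933 (MT1A), 0.919 (MT1X), 0.918 (MT1E), 0.830 (MT2A), 0.707 (MT1H), 0.663 (MT1M) and 0.617 (MT1F) with that profile, which contains them. Between pairs of members, r over the same 9 libraries ran from 0.10 for MT1H and MT1M to 0.89 for MT1X and MT2A.

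HPAF-II cells held far less metallothionein RNA than PANC-1 cells. Of the 8 members, 7 averaged 10 normalized counts or more in both lines, and all 7 were at least 2-fold lower in HPAF-II, as were 17.2% of the 18894 genes that reached this mean in both lines. All HPAF-II libraries lay below all PANC-1 siCtrl libraries for these 7, as for 29.2% of such genes, and their median log2 ratio was -3.54, against 0.13 over such genes. That median is the ratio of MT1M, which was above 0 in HPAF-II replicate 1 alone. The MT1M ratio ran from -6.55 to -0.85 over the alternative settings, so the median is uncertain. MT1G reached this mean in HPAF-II alone, so its higher mean there was fixed by the filter and is not counted. Over the 24673 genes that reached it in either line, 52.4% differed by at least 2-fold (25.2% lower and 27.2% higher in HPAF-II), and 31.7% had all HPAF-II libraries below all PANC-1 libraries. The tables of the lines were normalized apart and the line cannot be told apart from anything else that differed between these cultures, so no test was run. The members summed to 1986, 1809 and 1568 rescaled units in PANC-1 siCtrl and to 48.5, 31.2 and 55.1 in HPAF-II.

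MT2A stood at 1697, 1542 and 1331 rescaled units in PANC-1 and at 33.2, 23.9 and 44.6 in HPAF-II, 45-fold lower by the means. It was still the leading member in each HPAF-II library, but ranked only 3887 to 5843 among all genes. MT1E stood at 226, 216 and 190 rescaled units in PANC-1 and at 4.17, 0.291 and 2.04 in HPAF-II. The HPAF-II libraries differed widely among themselves for MT1E, and all lay far below PANC-1, 97.3-fold by the means. In HPAF-II replicate 1, which had the highest MT1E, the mesenchymal RNA VIM was at 15.2 rescaled units, against 0.283 and 0.3 in the other 2 libraries. The other mesenchymal markers, ZEB1 (1.04, against 1.44 and 0.791) and FN1 (0.137, against 0.144 and 0.116), were in between. The fibroblast RNAs COL1A2 (3.47, against 0 and 0) and DCN (0.997, against 0.0638 and 0.119) were also highest in that library, and both were listed at 0 in PANC-1 siCtrl. The other fibroblast markers were lowest in it: LUM (0.891, against 0.989 and 1.26), COL1A1 (17.7, against 17.9 and 19.8) and PDGFRB (0.106, against 0.148 and 0.307). The part of these RNAs in the MT1E value was not tested. MT1X stood at 45.1, 34.6 and 32.9 rescaled units in PANC-1 and 10.8, 5.96 and 7.72 in HPAF-II (4.6-fold lower by the means). Its ratio to MT2A was 0.173 to 0.326 in HPAF-II, above the 0.0224 to 0.0266 of PANC-1 siCtrl.

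MT1F stood at 1.55, 2.12 and 2.02 rescaled units in PANC-1 and 0.159, 0.467 and 0.3 in HPAF-II (6.15-fold lower). MT1A, at 14.3, 13.9 and 11.2 rescaled units in PANC-1, was listed at 0 in 2 HPAF-II libraries and at 0.145 in replicate 3. MT1M (0.865, 0.939 and 0.97 in PANC-1) was above 0 only in HPAF-II replicate 1, at 0.212, and MT1H (0.585, 0.525 and 0.297 in PANC-1) only in replicate 3, at 0.194. For these 3 members a fold would rest on 1 library, so none is given beyond the median ratio above, which is that of MT1M. MT1G ran the other way, at 0, 0.61 and 0.123 rescaled units in HPAF-II and 0.0226, 0 and 0 in PANC-1, but the lines overlapped and all values were low. Per length, HPAF-II libraries had MT2A at 24.1 to 45 rescaled units per kb, MT1X at 7.24 to 13.1, MT1E at 0.277 to 3.97 and MT1F at 0.216 to 0.636. MT2A and MT1X were apart from their neighbours in this order, whereas MT1E overlapped MT1F.

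**Figure D4:**
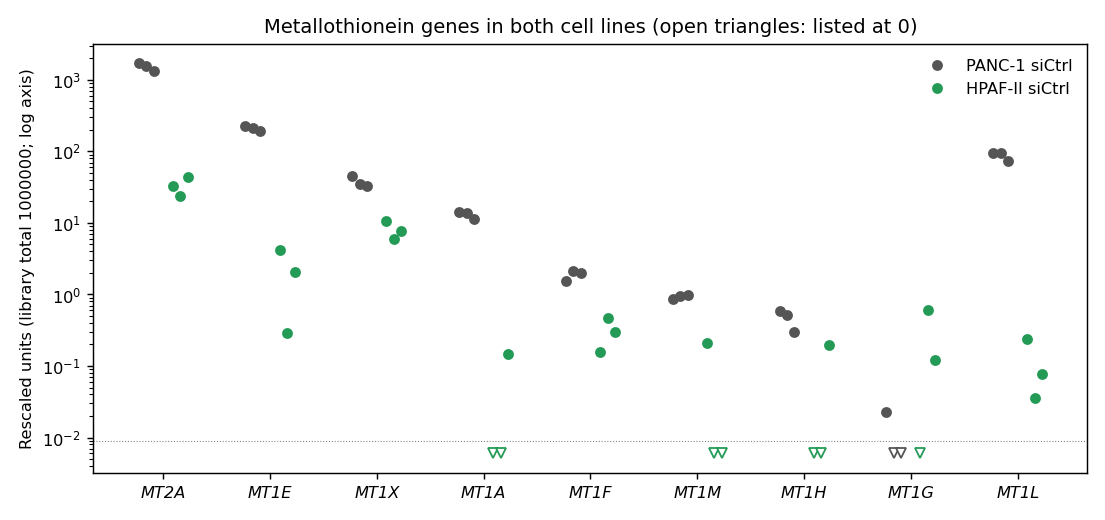
Rescaled units (y axis, log scale; each library sums to 1000000) of the 8 members and MT1L in the 3 siCtrl libraries of PANC-1 (dark) and HPAF-II (green). Points are libraries, and open triangles under the dotted line are libraries in which the gene was listed at 0. For 7 members and MT1L every HPAF-II library is below every PANC-1 library, and MT1G overlaps.

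Of the other metallothionein loci, only MT1L reached the mean of 10 in both lines, at 95.9, 95.1 and 73.3 rescaled units in PANC-1 and at 0.238, 0.0359 and 0.0775 in HPAF-II. MT1DP was listed at 0 in all HPAF-II libraries. The genes beside the cluster lay on both sides. Of 7 that reached the mean in both lines, 5 were within 2-fold, 1 was lower and 1 was higher (median log2 ratio 0.54). CPNE2 was the lower (5.04 in HPAF-II against 28.7 rescaled units in PANC-1) and NLRC5 the higher (11.6 against 4.16). BBS2 stood at 20.8 rescaled units in HPAF-II and 14.3 in PANC-1, and NUP93 at 34.2 and 54.9. GNAO1, which is not among the 7, was listed at 0 in HPAF-II and stood at 8.66 in PANC-1. The metal sensor MTF1 was at 26.4 ± 3.79 rescaled units in HPAF-II and 30.6 ± 0.393 in PANC-1 (n = 3), within 2-fold although the libraries did not overlap. SLC30A1 was at 15.8 ± 1.5 and 16 ± 0.602, with overlapping libraries. Of 8 other metal-stress genes that reached the mean in both lines, 2 were at least 2-fold lower in HPAF-II, 1 was higher and 5 were within 2-fold. HMOX1 was lower in HPAF-II (1.88 against 109 rescaled units), and SLC7A11 was higher (33 against 4.98). The zinc importers SLC39A8 (8.66 against 1.16) and SLC39A10 (58.3 against 12.5) were also higher in HPAF-II. Of 12 importers that reached the mean in both lines, 2 were at least 2-fold lower, 4 were higher and 6 were within 2-fold. Of 8 such glucocorticoid genes, 4 were at least 2-fold lower in HPAF-II, 1 was higher and 3 were within 2-fold. DUSP1 (49.7 against 346), KLF9 (0.39 against 3.8), SGK1 (6.61 against 20.1) and ERRFI1 (346 against 710) were lower. TSC22D3 was higher (17.9 against 4.26). Of 13 such copper handling genes, 4 were lower, 1 was higher and 8 were within 2-fold. Among all such genes, 17.2% were at least 2-fold lower.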

How the data were processed

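PolyA RNA of 12 libraries (4 groups of 3) was measured. The authors aligned reads to hg38 with STAR 2.7.5a, per the submitters' processing notes. The signal values deposited by the authors are counts per gene after scaling by DESeq2 size factors, done separately for the 9 PANC-1 and the 3 HPAF-II libraries. The paper's list of software names featureCounts, without saying for which files. Strand handling and the counting of multiply matching reads were not given in the sources used here. Every value was a whole multiple (within 0.01) of a library step, with 292248837 to 376192091 steps per PANC-1 library and 226697015 to 309720537 per HPAF-II library. Of values of 1 to 30 steps, 82.1% to 84.79% divided by 3 without remainder. Steps are therefore not single reads, depth in reads is unknown, no count test was run, and precision rests on replicates.

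PANC-1 libraries were compared in a single limma 3.58.1 fit (R 4.3.3, eBayes with a mean-variance trend, no block) on log2(normalized count + 1), which understates changes of low genes. The test covered 22544 genes (mean of 10 or more), with Benjamini-Hochberg adjustment over all of them, and a gene was called at an adjusted p under 0.05. HPAF-II was described against PANC-1 siCtrl on values rescaled to 1000000, with a pseudocount of 0.01 and a 2-fold change as called, over 24673 genes with a mean of at least 10 in either line and, chosen after seeing the data, 18894 with it in both. Exon lengths and shared stretches came from GENCODE v29, promoters from RefSeq (GRCh38.p14). On simulated data for siRBFOX2 vs siCtrl (22456 genes), limma recovered 22 of 40 genes lowered by 1.0 on the log2 scale and 21 of 40 lowered by 0.5, with 5 false calls over all sizes. Among genes with a mean of 50 or more, which all tested members exceeded, it recovered 22 of 34 and 21 of 31. Only 200 genes were changed in the simulation, far fewer than were called in the data, so its recovery does not carry over to the data.

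Named genes were the 8 members, QKI and RBFOX2, the genes of the lists (other metallothionein loci, flanking genes, metal sensor and zinc exporters, zinc importers, copper handling, other metal-stress genes, glucocorticoid genes, cell type markers) and the 5 genes most like the members. The members and lists were chosen with earlier results of these data known. Same-numbered libraries of different groups did not deviate together (r from -0.0325 to 0.0235 over 9 pairs), so the numbers were not used as pairs. Other pseudocounts, filters, scalings and fits and the omission of each library were tried. A gene of the flanking list is not reported here.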

Additional observations from a re-analysis of the deposited data

How the results depend on the processing

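Among the members, all 4 calls in siRBFOX2 kept their direction over the 17 alternatives, and MT1E, MT1X and MT2A passed in each; between 3 and 5 members were called there. For siQKI vs siCtrl, 1 member was called, against 2 with upper-quartile rescaling, with the replicate block and in a fit of only the groups compared, and 0 without the mean-variance trend; leaving out single libraries gave 1 to 2. For siQKI vs siRBFOX2, 3 were called, against 1 without the trend; leaving out single libraries gave 1 to 4, with 1 without siQKI replicate 1 or siRBFOX2 replicate 2 and 4 without siRBFOX2 replicate 3. Between the lines, 8 members differed by 2-fold, a count that includes MT1G, which passed the filter through HPAF-II alone; 7 did, all lower, among genes measured in both lines, and 5, all lower, with a pseudocount of 1. The causes were not tested. Estimates that changed sign were not called: in siQKI, MT1A at -0.02 without siCtrl replicate 3 or siQKI replicate 1 (-0.02 to 0.16 over all omissions), MT1H at -0.14 and -0.02 in the same settings (-0.14 to 0.37) and MT1M at -0.05 without siQKI replicate 1 (-0.05 to 0.43); in siRBFOX2, MT1L at 0.02 with upper-quartile rescaling, 0.04 without siCtrl replicate 1, 0.05 without siCtrl replicate 2 and 0.04 without siRBFOX2 replicate 2. Upper-quartile rescaling moved the median log2 fold change of all genes from 0.03 to 0.11 in siQKI and from 0.01 to 0.05 in siRBFOX2. It also moved the split of all calls from 3362 higher and 4070 lower to 4454 and 2651 in siQKI, from 2713 and 3272 to 3099 and 2417 in siRBFOX2, and from 2238 and 2606 to 2819 and 1918 between the knockdowns. The replicate block, whose numbers do not pair the libraries, gave 2 calls in siQKI by adding MT1E (adjusted p = 0.0323, limma), and MT1A passed with it in siRBFOX2 (adjusted p = 0.0451, limma). Depth in reads is unknown, so no limit from it can be given; the wide intervals of MT1F, MT1M and MT1H and the zeros of MT1G limit what can be said of them.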
